A study of Homo sapiens with 6 samples.

Results

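MDA-MB-231 cells carrying either of 2 short hairpin RNAs against S100A10 were compared, as the average of both hairpins, with cells carrying a control hairpin, and the genes that lay to the same side of the control with both hairpins are described here. The arrays measured total RNA of MDA-MB-231, an established human line of triple-negative breast cancer. The knock-down cells were infected with hairpin-bearing lentivirus, and all 3 groups were grown with 10% serum and 2.5 µg/ml puromycin, the drug that selects infected cells. The control group was shNCT and the knock-down groups were shS100A10_1 and shS100A10_5, with 2 arrays in each group. The target sequence of neither hairpin is known here, nor whether a group is 1 clone or a pool of infected cells. Whether the 2 arrays of each group stand for separate cultures is not stated, so a p-value reflects the variation between arrays alone, possibly technical.

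S100A10, also called p11, belongs to the S100 family of small EF-hand proteins but has lost the ability to bind calcium. It forms a heterotetramer with annexin A2, which carries it to the inner and outer face of the plasma membrane. There the complex binds plasminogen and tissue plasminogen activator and speeds the formation of plasmin, a protease of the extracellular matrix, and inside the cell it tethers ion channels and the scaffold protein AHNAK.

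Genes were kept when all 4 knock-down arrays lay above both control arrays, or all 4 below both. That held for 3088 of 15674 probe sets with a gene symbol, or 19.7%, of which 3055 belonged to protein-coding genes. In 1642 (10.5%) the knock-down arrays were the higher ones and in 1446 (9.23%) the lower ones. The counts of list members on 1 side, given below, are to be set beside these 2 shares of all genes. Most of the 3088 separations were small. The log2 change, the mean of both hairpin groups minus the control mean, was below 0.5 in size in 2349 of the 3088. Their median size was 0.362, against 0.167 over all symbol-bearing probe sets, a gap that the rule itself favours. At least a 2-fold difference was reached by 47 genes, 35 of them higher and 12 lower. At the edge of the rule, CLDN4 (log2 0.23), TINAGL1 (0.13) and SPRY1 (0.15) lay just inside it, and HMCN2 (0.18), PARP1 (-0.24) and STMN2 (-0.67) just outside.

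Of all 16965 probe sets, 52 (0.307%) passed limma's test of the same contrast at a Benjamini-Hochberg adjusted p under 0.05, 40 of them higher (0.236%) and 12 lower (0.0707%). Among these, 49 met the rule, 38 rises and 11 falls, and 35 of the 49 changed at least 2-fold. The rule and the test read the same 6 arrays, so keeping to 1 side of the controls adds no support to a call. QPCTL and OASL passed the test although their arrays overlapped the controls, and 1 called probe set has no symbol. An unadjusted p under 0.05 was reached by 1150 probe sets in the direction of a rise (6.78%) and by 1179 in the direction of a fall (6.95%), so the excess of called rises over falls did not extend to the weaker changes. The median change of all probe sets was 0.01.

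The 52 calls rest on the spread between the 2 arrays of a group. When the 4 knock-down arrays were fitted as 1 group, so that the difference between the hairpins entered the spread, limma called 0 probe sets with a smallest adjusted p of 0.0706, while 1268 had an unadjusted p under 0.05, 48 of the 49 genes among them. Leaving out 1 array lowered the count to 6 without shNCT replicate 1, 7 without shNCT replicate 2, 31 without shS100A10_1 replicate 2, 11 without shS100A10_5 replicate 1 and 10 without shS100A10_5 replicate 2. With eBayes letting the prior variance follow intensity, the count rose to 218 (117 higher, 101 lower), and among probe sets above the median level to 140 (69 higher, 71 lower), so the larger number of rises depended on these settings.

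Markers of the cell line were mixed. Of 12 basal B breast line markers 10 had a mean intensity above that of the median gene, while SPARC (15.6 to 20.1) and TWIST1 (56.6 to 110) did not. VIM ranged from 83400 to 103000 in intensity, CD44 from 13300 to 15100 and CDH1, the epithelial cadherin, from 8.86 to 16.5, on arrays with median intensities of 231.85 to 238.47. Of 7 luminal markers 2 were above the median gene, XBP1 (1450 to 2400) and SPDEF (354 to 851), while GATA3 ranged from 105 to 129 and TFF1 from 14.4 to 31.1. Of 7 epithelial adhesion markers CLDN4 (2650 to 3720), EPCAM (935 to 1730) and CLDN7 (866 to 1910) were above it. The 2 arrays of shS100A10_5 were the least alike, with an SD of their log2 difference of 0.36 against 0.287 for shNCT and 0.292 for shS100A10_1. On shS100A10_5 replicate 2, longer genes read higher relative to their mean over the arrays (Spearman rank correlation across genes 0.247, against -0.207 to 0.0354 on the others). The medians of oxidative phosphorylation and of the ribosomal lists are given with and without that array, while other results that shift without it are not all given both ways.

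**Figure D1:**
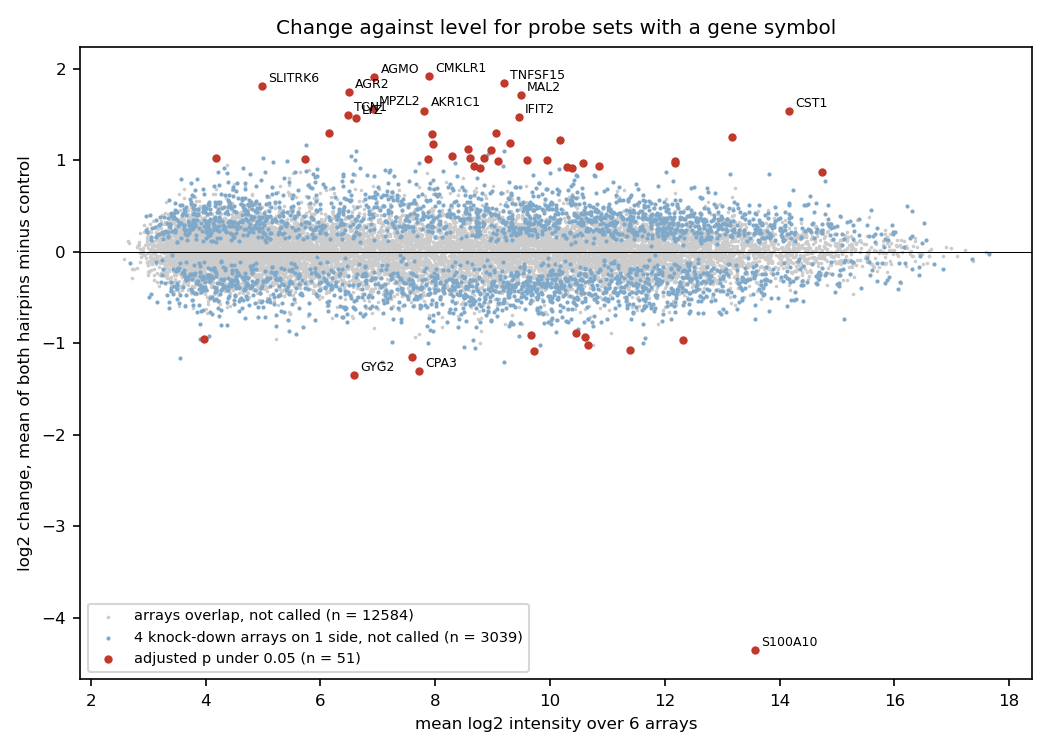
The log2 change with both hairpins together (vertical axis) is plotted against the mean log2 intensity over 6 arrays (horizontal axis) for each probe set with a symbol. Red points are the 51 with an adjusted p under 0.05, blue points the 3039 genes on 1 side of the controls that did not pass, and S100A10 stands alone at -4.35.

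The targeted gene checked the labels. S100A10 had an intensity of 88860 and 92938 in the controls, 1969 and 1545 with shS100A10_1 and 13565 and 9460 with shS100A10_5. Every knock-down array was far below both controls, and those of shS100A10_5 kept more of the transcript than those of shS100A10_1. The change was log2 -4.35, SE 0.19, adjusted p = 6.05e-06, a 20.4-fold fall, averaged from -5.70 with shS100A10_1 and -3.00 with shS100A10_5. ANXA2, the partner that anchors S100A10 at the membrane, read 135978 and 150603 in the controls, 135969 and 141995 with shS100A10_1 and 143648 and 132146 with shS100A10_5. The control and knock-down arrays of ANXA2 overlapped, with log2 -0.05, SE 0.15, adjusted p = 0.913. AHNAK2, a giant scaffold protein related to the S100A10 ligand AHNAK, rose from 383 and 347 in the controls to 549 and 768 with shS100A10_1 and 1050 and 1054 with shS100A10_5 (log2 1.18, SE 0.17, adjusted p = 0.0296). Of 13 measured genes of the annexin A2 complex and its partners, 1 passed the test, S100A10 itself. ANXA1 and CTSB lay above both controls, and S100A10, SCN10A, DLC1 and PLG below them, without passing in the other cases. SCN10A, a sodium channel that S100A10 escorts to the membrane, had a log2 difference of -0.34 (adjusted p = 0.415). PLG, which encodes plasminogen, had a log2 difference of -0.48 (adjusted p = 0.249).

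Genes of proteolysis and its inhibitors held both called rises and a called fall. PLAT encodes tissue plasminogen activator, 1 of the ligands of the S100A10 complex. Its intensity was 19111 and 17549 in the controls, 37132 and 35714 with shS100A10_1 and 29585 and 32489 with shS100A10_5. All 4 knock-down arrays were well above both controls (log2 0.88, SE 0.15, adjusted p = 0.0462). PLAT was the single called gene among 10 plasminogen activators and serpins, of which 2 lay above and 2 below both controls. PLAU, which encodes urokinase, was not among them, since its arrays were higher with shS100A10_1 (19600 and 18400) and lower with shS100A10_5 (9130 and 8340) than in the controls (12500 and 12700).

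CST1, CST4 and CST2 encode cystatins SN, S and SA, secreted inhibitors of cysteine proteases. They are consecutive genes in the order CST4, CST1, CST2. The intensity of CST1 was 8772 and 9413 in the controls, 34250 and 30966 with shS100A10_1 and 21916 and 20732 with shS100A10_5, the largest change of the 3 (log2 1.54, SE 0.15, adjusted p = 0.00195). CST4 read 5135 and 5228 in the controls, 13052 and 13371 with shS100A10_1 and 12043 and 11022 with shS100A10_5 (log2 1.25, SE 0.14, adjusted p = 0.00701). CST2 read 3127 and 2775 in the controls, 6889 and 5658 with shS100A10_1 and 5988 and 4962 with shS100A10_5 (log2 0.99, SE 0.16, adjusted p = 0.046). In each of the 3, the dimmest knock-down array was well above the brighter control. CST3, the broadly expressed cystatin C of the same cluster, read 17374 and 20632 in the controls, 19433 and 17018 with shS100A10_1 and 14113 and 11603 with shS100A10_5 and did not pass (log2 -0.31, SE 0.16, adjusted p = 0.431). The sequences of CST1, CST2 and CST4 are close to each other, so any probe signal they have in common could not be split. Among 22 cystatins and cysteine proteases 3 passed, all of them these cystatins. Of the 22, 6 (27.3%) lay above and 2 (9.09%) below both controls, against 10.5% and 9.23% of all genes. The lysosomal protease CTSS had a log2 difference of 0.89 (adjusted p = 0.101) and CSTA, a cystatin of the cytosol, a log2 difference of -0.53 (adjusted p = 0.236). CST7 of the same list read 421 and 427 in the controls, 108 and 142 with shS100A10_1 and 641 and 384 with shS100A10_5. It was far below the controls with shS100A10_1 and on either side of them with shS100A10_5 (log2 -0.77, SE 0.21, adjusted p = 0.186).

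CPA3, a carboxypeptidase best known from mast cell granules, fell from 388 and 381 in the controls to 129 and 132 with shS100A10_1 and 219.7 and 156 with shS100A10_5. The control arrays nearly coincided, and the arrays of shS100A10_1 lay furthest below them (log2 -1.31, SE 0.17, adjusted p = 0.0157). HDC, the other mast cell marker measured, read between 24.1 and 36.6 on all arrays. The summed level of both markers was 412 and 417 in the controls against 155 to 251 with the hairpins. Most of that sum was CPA3 itself, so it adds nothing to the fall of CPA3. The labels name only MDA-MB-231 cells, and the source of the CPA3 signal was not tested.

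**Figure D2:**
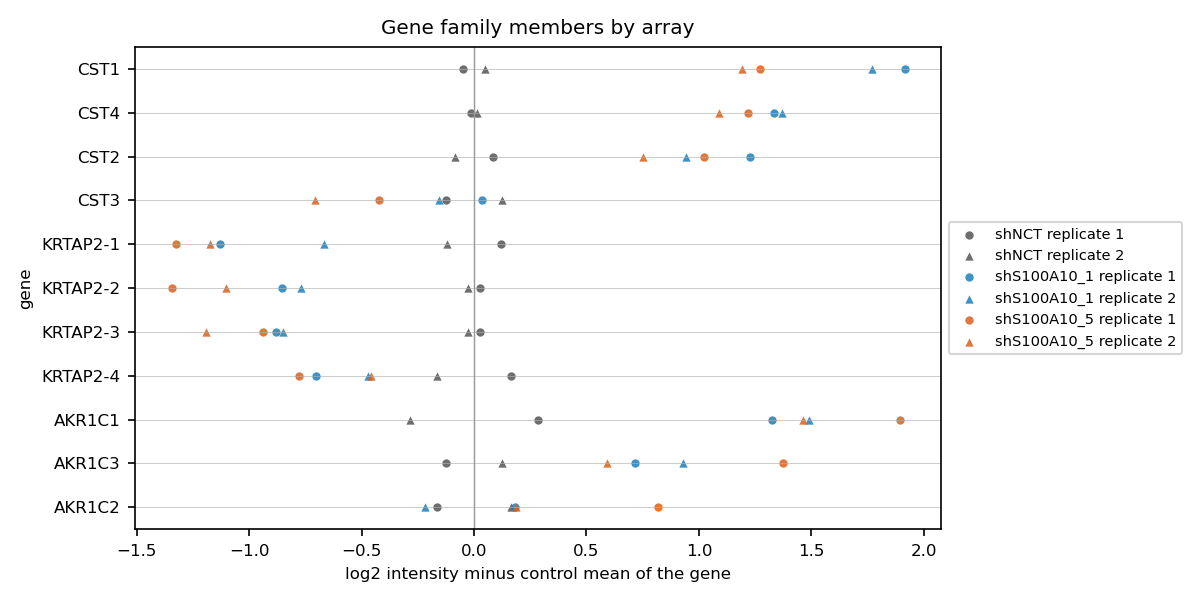
Log2 intensity minus the gene's control mean (horizontal axis) is shown for members of 3 gene families (vertical axis), 1 point per array with circles for replicate 1 and triangles for replicate 2. CST1, CST4 and CST2 lie to the right of both controls and KRTAP2-1, KRTAP2-2 and KRTAP2-3 to the left on all 4 knock-down arrays, while CST3 and AKR1C2 overlap the controls.

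Keratin-associated proteins of the KRTAP2 cluster fell together. These small cysteine-rich proteins crosslink keratin filaments in the hair shaft, and KRTAP2-1, KRTAP2-2 and KRTAP2-3 are consecutive genes. KRTAP2-1 read 4834 and 4090 in the controls, 2034 and 2803 with shS100A10_1 and 1776 and 1969 with shS100A10_5 (log2 -1.07, SE 0.18, adjusted p = 0.042). KRTAP2-2 read 2649 and 2555 in the controls, 1441 and 1527 with shS100A10_1 and 1025 and 1211 with shS100A10_5 (log2 -1.02, SE 0.15, adjusted p = 0.0314). KRTAP2-3 read 8123 and 7846 in the controls, 4339 and 4431 with shS100A10_1 and 4161 and 3495 with shS100A10_5 (log2 -0.97, SE 0.15, adjusted p = 0.0376). In each gene the 2 control arrays lay close together and the knock-down arrays well below, and the hairpins did not differ past the threshold (adjusted p 0.368, 0.22 and 0.567). KRTAP2-4 lay below both controls but did not pass, with log2 -0.60, SE 0.17, adjusted p = 0.195. These genes are near-identical copies of each other, so their probe sets may share signal and are not 3 independent measurements.

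Since the 3 genes moved together, the 250 bases before each RefSeq start (GRCh38.p14) are shown, on the minus strand of chromosome 17 at chr17:41047317-41047566, chr17:41055231-41055480 and chr17:41060115-41060364, with capitals for matches to TATAAA and to CCAAT on either strand.
KRTAP2-1: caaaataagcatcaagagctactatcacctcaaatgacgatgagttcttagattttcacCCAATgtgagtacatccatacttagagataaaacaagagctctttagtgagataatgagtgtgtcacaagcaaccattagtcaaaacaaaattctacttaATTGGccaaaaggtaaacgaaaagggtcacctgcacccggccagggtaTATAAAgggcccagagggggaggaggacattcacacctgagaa
KRTAP2-2: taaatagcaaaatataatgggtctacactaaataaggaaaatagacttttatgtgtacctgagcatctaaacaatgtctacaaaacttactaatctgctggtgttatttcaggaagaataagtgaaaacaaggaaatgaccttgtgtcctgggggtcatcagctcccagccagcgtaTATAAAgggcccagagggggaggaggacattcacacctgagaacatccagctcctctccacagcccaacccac
KRTAP2-3: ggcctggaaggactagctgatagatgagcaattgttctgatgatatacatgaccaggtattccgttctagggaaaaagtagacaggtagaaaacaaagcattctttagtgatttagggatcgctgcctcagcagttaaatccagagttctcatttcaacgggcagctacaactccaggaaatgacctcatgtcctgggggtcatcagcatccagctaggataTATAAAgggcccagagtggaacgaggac
The 3 windows share a run of 18 bases around the TATAAA match, taTATAAAgggcccagag. That match begins 43, 73 and 28 bases before the annotated start of KRTAP2-1, KRTAP2-2 and KRTAP2-3. Aligned in pairs, the windows were identical at 55.9% of positions for KRTAP2-1 and KRTAP2-2, 55.1% for KRTAP2-1 and KRTAP2-3 and 48.8% for KRTAP2-2 and KRTAP2-3.

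Among the 32 of the 49 called genes with a promoter in the RefSeq table, 9 (28.1%) held TATAAA on either strand, against 10.9% of 12728 promoters. They were the 3 KRTAP2 genes, OGN, ICAM1, JUNB, LIPH, EREG and KYNU. The 3 KRTAP2 matches lie in the shared run of 18 bases and are not independent, so they weigh on the 28.1% more than 1 gene would. CCAAT was found in 11 (34.4%, against 40.8%), the AP-1 motif TGANTCA in 2 (6.25%, against 7.06%), the antioxidant response motif TGACNNNGC in 3 (9.38%, against 15.4%), the E-box CACGTG in 1 (3.12%, against 9.99%) and the interferon-stimulated response element in 0 (against 3.39%). These are counts of letters in a window of 250 bases, with no test. Called genes without a promoter sequence were not searched. The 0 for the interferon-stimulated response element therefore covers the 32 alone, too few to judge a motif that rare.

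Several of the rises were genes of secretion and of epithelial surfaces. AGR2 encodes a disulfide isomerase of the endoplasmic reticulum that mucus-secreting epithelia need. It read 34.9 and 46.4 in the controls, 168 and 155 with shS100A10_1 and 109.7 and 115 with shS100A10_5 (log2 1.74, SE 0.16, adjusted p = 0.00195). LYZ, which encodes the secreted antibacterial enzyme lysozyme, read 51 and 49.3 in the controls, 132 and 166 with shS100A10_1 and 129 and 127 with shS100A10_5 (log2 1.46, SE 0.15, adjusted p = 0.00458). TCN1, a secreted binding protein for vitamin B12, read 34.8 and 57.5 in the controls, 132 and 103 with shS100A10_1 and 158 and 118 with shS100A10_5 (log2 1.50, SE 0.22, adjusted p = 0.0338). In each of the 3 the lowest knock-down array was well above the higher control. LYZ also served as a leukocyte marker: of 8 such markers LYZ alone lay on 1 side, PTPRC ranged from 34.5 to 57.0, and the summed level was 6597 to 6874 in the controls, 7733 to 8198 with shS100A10_1 and 4702 to 6204 with shS100A10_5, almost all of it CD68. As the labels name no cells other than MDA-MB-231, LYZ is read here as a gene of that line, and the source of its signal was not tested. In a bulk measurement, a change in the number of expressing cells and a change in RNA per cell cannot be told apart.

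MAL2, a membrane protein that carries cargo from the basal to the apical side of epithelial cells, read 362 and 293 in the controls, 1562 and 1439 with shS100A10_1 and 819 and 709.9 with shS100A10_5 (log2 1.71, SE 0.16, adjusted p = 0.00195). All knock-down arrays were far above the controls, and those of shS100A10_1 were the brighter ones. MPZL2, an immunoglobulin-domain protein of cell-to-cell adhesion, read 58.6 and 58.3 in the controls, 189 and 218 with shS100A10_1 and 139.6 and 154 with shS100A10_5 (log2 1.56, SE 0.15, adjusted p = 0.00195). RAB17, a small GTPase of epithelial transport, was highest with shS100A10_5. It read 211 and 176 in the controls, 285 and 234 with shS100A10_1 and 631 and 594 with shS100A10_5 (log2 1.04, SE 0.16, adjusted p = 0.0366). LIPH, a phospholipase that makes the signalling lipid lysophosphatidic acid, rose by 0.97 on the log2 scale (SE 0.15, adjusted p = 0.0402). Of 36 measured genes of epithelial adhesion and polarity, MAL2 and MPZL2 passed. Among the 36, 7 (19.4%) lay above and 0 below both controls, against 10.5% and 9.23% of all genes. Besides MAL2 and MPZL2 the 7 were EPCAM, CLDN1, CLDN4, OCLN and JUP. Of 20 mesenchymal genes 0 passed in limma's fit, 0 lay above and 3 below both controls, CDH2, SPARC and TNC. An unadjusted p under 0.05 was reached by 3 in the lower direction and by 2 in the higher, SNAI1 and TCF4. SNAI1 read 60.4 and 50.5 in the controls, 37.5 and 37.3 with shS100A10_1 and 162 and 213 with shS100A10_5. TCF4 read 68.8 and 85.7 in the controls, 68.1 and 77.2 with shS100A10_1 and 135 and 165 with shS100A10_5. Both were thus above the controls with shS100A10_5 alone. The median changes of the lists were 0.05 and -0.01, and ranged from 0.017 to 0.08 and from -0.06 to -0.0028 without 1 array each. CDH1 itself had a log2 difference of -0.28 (adjusted p = 0.557).

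Receptors and proteoglycans of the cell surface moved in both directions. ITGA2, the integrin alpha chain that binds collagen, read 2828 and 3099 in the controls, 4506 and 4671 with shS100A10_1 and 6397 and 8467 with shS100A10_5 (log2 0.97, SE 0.16, adjusted p = 0.0462). It was the single called gene among 19 integrins, where ITGB1 also lay above and ITGA6 below both controls. ICAM1, the ligand of leukocyte integrins, read 905 and 851 in the controls, 1329 and 1388 with shS100A10_1 and 1894 and 2125 with shS100A10_5 (log2 0.91, SE 0.15, adjusted p = 0.0409). Both genes were brightest on the arrays of shS100A10_5. SDC1, the heparan sulfate proteoglycan syndecan-1, fell from 1322 and 1470 in the controls to 718 and 802 with shS100A10_1 and 653 and 499 with shS100A10_5 (log2 -1.08, SE 0.17, adjusted p = 0.035). OGN, a small leucine-rich proteoglycan of the matrix, fell from low intensities of 25.1 and 23.7 in the controls to 13.1 and 12.5 with shS100A10_1 and 11.7 and 13 with shS100A10_5 (log2 -0.96, SE 0.15, adjusted p = 0.035). SCARA3, a scavenger receptor, rose by 1.02 on the log2 scale (SE 0.16, adjusted p = 0.0378). OGN, TNFSF18 and SLITRK6 were the 3 called genes whose control level was below the lower quartile of all probe sets. The deposited table has no detection calls, so whether these probe sets exceeded background is unknown.

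Ligands and receptors of immune signalling were behind 2 of the 3 largest rises. CMKLR1, the receptor of the chemoattractant chemerin, read 105 and 91.1 in the controls, 264 and 241 with shS100A10_1 and 551 and 533 with shS100A10_5. Every knock-down array was far above the brighter control, those of shS100A10_5 the most (log2 1.92, SE 0.15, adjusted p = 0.000952). TNFSF15, a ligand that costimulates T cells through its death-domain receptor, read 237 and 267 in the controls, 1647 and 1408 with shS100A10_1 and 535 and 528 with shS100A10_5. Here the arrays of shS100A10_1 were the brightest (log2 1.84, SE 0.15, adjusted p = 0.000952). CMKLR1, TNFSF15, AGMO and S100A10 were the 4 genes that passed in each of the 6 fits that left out 1 array. TNFSF18, a second costimulatory ligand of the tumour necrosis factor family, read 12.4 and 10.3 in the controls, 18.6 and 18.4 with shS100A10_1 and 24.9 and 32.3 with shS100A10_5 (log2 1.02, SE 0.17, adjusted p = 0.0418). The 250 bases before the TNFSF15 start, on the minus strand at chr9:114792531-114792780 of GRCh38.p14, held 1 AP-1 match 120 bases before the start and 1 CCAAT match 76 bases before it, shown in capitals.
TNFSF15: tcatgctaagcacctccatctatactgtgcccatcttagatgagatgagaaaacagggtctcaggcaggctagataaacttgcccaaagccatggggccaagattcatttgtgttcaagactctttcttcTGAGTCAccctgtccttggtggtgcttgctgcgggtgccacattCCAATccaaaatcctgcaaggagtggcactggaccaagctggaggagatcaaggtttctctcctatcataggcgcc

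Of 27 ligands and receptors of the tumour necrosis factor superfamily, TNFSF15 and TNFSF18 passed. Among the 27, 6 (22.2%) lay above both controls and 1 (3.7%), TNFRSF12A, below, against 10.5% and 9.23% of all genes. TNFSF10, which encodes the death ligand TRAIL, missed the threshold narrowly (log2 1.10, SE 0.19, adjusted p = 0.0523). CMKLR1 was the single called gene among 28 interleukin and chemokine receptors. Of the 28, 9 (32.1%) lay above and 0 below both controls, against the same shares of all genes. The other 8 were IL4R, IL17RB, IL17RC, IL18R1, IL20RB, IFNAR1, IFNAR2 and OSMR, with values such as a log2 difference of 0.70 (adjusted p = 0.128) for IFNAR2. Among 26 cytokines and chemokines limma called 0, with an unadjusted p under 0.05 in 11 higher and 1 lower, while IL1B, IL6, IL18, IL32, CSF1 and CCL20 lay above both controls and 0 below. CSF1, the growth factor of macrophages, had a log2 difference of 0.85 (adjusted p = 0.0508). The median changes of these 3 lists were 0.18, 0.21 and 0.34, and the last fell to 0.20 without shNCT replicate 2. For cytokines and chemokines the median was only 0.19 with shS100A10_1 and 0.23 with shS100A10_5, each hairpin taken singly.

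Interferon-stimulated genes are antiviral effectors that interferons switch on, and 4 of 50 measured ones passed the test, all higher. IFIT2, which blocks translation of viral RNA, read 431 and 295 in the controls, 1147 and 1865 with shS100A10_1 and 539 and 818 with shS100A10_5. Its arrays scattered widely, and the dimmest knock-down array, of shS100A10_5, was not far above the brighter control (log2 1.47, SE 0.25, adjusted p = 0.048). GBP2, a GTPase of the defence against intracellular microbes, read 268 and 339.9 in the controls, 438 and 537 with shS100A10_1 and 838 and 922 with shS100A10_5 (log2 1.11, SE 0.17, adjusted p = 0.0338). PLAAT4, a phospholipase and acyltransferase induced by retinoids and interferon, read 136 and 153 in the controls, 369 and 335 with shS100A10_1 and 323 and 283 with shS100A10_5 (log2 1.17, SE 0.15, adjusted p = 0.0153). OASL, the fourth, did not meet the rule: it read 275 and 252 in the controls, 1440 and 1543 with shS100A10_1 and 193 and 152 with shS100A10_5, above the controls with shS100A10_1 and below them with shS100A10_5 (log2 0.94, SE 0.16, adjusted p = 0.0474). Of the 50 genes 17 (34.0%) lay above both controls and 1, PARP12, below, against 10.5% and 9.23% of all genes. Besides IFIT2, GBP2 and PLAAT4 these were OAS1, OAS2, IFI44L, IFIH1, IRF9, HERC6, USP18, SAMD9, PARP9, PARP14, IFITM1, IFITM2, IFITM3 and PLSCR1. The list's median change was 0.27, and by array the median departure from the control mean was 0.24 and 0.26 with shS100A10_1 and 0.30 and 0.40 with shS100A10_5.

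Other genes of innate sensing were CARD16, an inhibitor of caspase-1, and SHARPIN, a subunit of the linear ubiquitin ligase that activates NF-kB. CARD16 read 219 and 232 in the controls, 352 and 341 with shS100A10_1 and 731 and 661 with shS100A10_5 (log2 1.12, SE 0.15, adjusted p = 0.0153). SHARPIN, whose low values came with shS100A10_5, fell from 2142 and 2067 in the controls to 1772 and 1799 with shS100A10_1 and 789 and 659 with shS100A10_5 (log2 -0.89, SE 0.15, adjusted p = 0.0464). PDLIM2, which promotes the degradation of the NF-kB subunit p65, fell from 1294 and 1193 in the controls to 569 and 527 with shS100A10_1 and 783 and 818 with shS100A10_5 (log2 -0.91, SE 0.15, adjusted p = 0.0409). Among 13 sensors of double-stranded RNA and DNA and their adaptors limma called 0, with an unadjusted p under 0.05 in 5 higher and 1 lower. Of the 13, 5 (38.5%) lay above both controls, against 10.5% of all genes: IFIH1, DHX58, IKBKE, STING1 and CGAS. Of 16 NF-kB components and feedback genes ICAM1 alone passed, and REL, NFKBIA and IKBKE also lay above both controls.

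Enzymes made up a further group. AGMO cleaves the ether bond of alkylglycerol lipids. It read 48.3 and 53.6 in the controls, 223 and 267 with shS100A10_1 and 142 and 156 with shS100A10_5, the second largest rise (log2 1.90, SE 0.15, adjusted p = 0.000952). KYNU, kynureninase of the tryptophan breakdown pathway, read 38.1 and 40.3 in the controls, 108 and 96.7 with shS100A10_1 and 94.9 and 86.8 with shS100A10_5 with little scatter (log2 1.30, SE 0.15, adjusted p = 0.00698). PTGES, the prostaglandin E synthase that acts after cyclooxygenase, read 1328 and 1087 in the controls, 2704 and 2836 with shS100A10_1 and 2037 and 1788 with shS100A10_5 (log2 0.94, SE 0.16, adjusted p = 0.0462). KYNU was the single called gene among 21 of tryptophan and NAD metabolism and AGMO the single one among 29 of fatty acid oxidation and ether lipids. The median changes of these lists were 0.01 and 0.06, and ranged from -0.03 to 0.07 and from 0.04 to 0.10 without 1 array each.

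AKR1C1, an aldo-keto reductase that inactivates progesterone, read 134 and 90.4 in the controls, 275 and 308 with shS100A10_1 and 408 and 303 with shS100A10_5 (log2 1.54, SE 0.20, adjusted p = 0.0153). AKR1C3 of the same family read 694 and 823 in the controls, 1242 and 1439 with shS100A10_1 and 1956 and 1139 with shS100A10_5 and lay above both controls without passing (log2 0.90, SE 0.22, adjusted p = 0.141). AKR1C2 overlapped the controls (log2 0.24, SE 0.21, adjusted p = 0.656). The 3 sequences are close, so cross-reading between the probes could not be separated. AKR1C1 is a target of the oxidative stress factor NRF2, and of 29 measured NRF2 targets it alone passed. Of the 29, 3 (10.3%) lay above and 1 (3.45%) below both controls, against 10.5% and 9.23% of all genes. The median change of the NRF2 targets, 0.05, ranged from -0.06 to 0.07 without 1 array each.

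GYG2, a glycogenin that starts glycogen chains, fell from 148 and 216 in the controls to 42.8 and 54.1 with shS100A10_1 and 109 and 95.9 with shS100A10_5. The fall was larger with shS100A10_1, and the controls of GYG2 were far apart (log2 -1.35, SE 0.19, adjusted p = 0.0264). Among 20 enzymes of glycogen and the pentose phosphate pathway it alone passed, while GYS1 and PGM1 also lay below and GYG1 above both controls. QPCTL, which caps protein ends as pyroglutamate in the Golgi, read 293 and 373 in the controls, 318 and 287 with shS100A10_1 and 78.2 and 69.4 with shS100A10_5, overlapping the controls with shS100A10_1 and far below them with shS100A10_5 (log2 -1.15, SE 0.16, adjusted p = 0.0264).

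Regulators of transcription and growth signalling were called in several places. NR1D1 encodes REV-ERB alpha, a repressor of the circadian clock. It read 288 and 299.9 in the controls, 352 and 372 with shS100A10_1 and 1356 and 1537 with shS100A10_5, barely above the controls with shS100A10_1 and far above them with shS100A10_5 (log2 1.30, SE 0.15, adjusted p = 0.00698). JUNB, a subunit of the AP-1 factor, read 296 and 284 in the controls, 424 and 380.0 with shS100A10_1 and 763 and 727 with shS100A10_5 (log2 0.91, SE 0.15, adjusted p = 0.0409). NFAT5, the factor of the response to osmotic stress, rose by 1.01 on the log2 scale (SE 0.17, adjusted p = 0.0462). HCFC1R1, which regulates the cell cycle cofactor HCF-1, fell from 2273 and 2564 in the controls to 2101 and 1895 with shS100A10_1 and 839.7 and 775 with shS100A10_5 (log2 -0.93, SE 0.15, adjusted p = 0.041). Of 18 clock genes NR1D1 alone passed, BHLHE40 also lay above and CSNK1D below both controls, and the list's median was -0.06 with shS100A10_1 and 0.30 with shS100A10_5. JUNB was the single called gene among 24 immediate early genes, where NR4A1 also lay above and JUN below both controls.

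EREG, epiregulin, a ligand of the epidermal growth factor receptor, read 263 and 226 in the controls, 460.3 and 607 with shS100A10_1 and 445 and 489 with shS100A10_5 (log2 1.03, SE 0.17, adjusted p = 0.042). SOS2, an exchange factor that activates Ras, rose by 1.01 on the log2 scale (SE 0.17, adjusted p = 0.0462). UTS2B, a peptide related to urotensin, rose by 1.01 on the log2 scale (SE 0.15, adjusted p = 0.0323). EREG was the single called gene among 39 growth factor receptors and ligands. Of the 39, 7 (17.9%) lay above both controls, EGFR, EREG, NRG1, PDGFRA, MET, FLT1 and NRP2, and FGF5 and KDR below. Of all genes 10.5% lay above and 9.23% below. In the TGF-beta and BMP pathway limma called 0 of 39, with an unadjusted p under 0.05 in 7 higher and 0 lower, while 8 (20.5%) lay above both controls and 0 below: TGFB3, TGFBR2, TGFBR3, TGFBI, SMAD1, SMAD4, BMP2 and BMPR1B.

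Genes better known from neurons were called as rises. SYT1, the calcium sensor of synaptic vesicles, read 630.3 and 689.6 in the controls, 1179 and 1012 with shS100A10_1 and 1814 and 2559 with shS100A10_5 (log2 1.22, SE 0.18, adjusted p = 0.0296). SLITRK6, a neuronal membrane protein with leucine-rich repeats, read 12.2 and 15.3 in the controls, 25 and 27.5 with shS100A10_1 and 67.4 and 114 with shS100A10_5 (log2 1.81, SE 0.21, adjusted p = 0.00833). CALB2, the calcium buffer calretinin, read 779 and 853 in the controls, 1278 and 1217 with shS100A10_1 and 2093 and 1780 with shS100A10_5 (log2 0.93, SE 0.15, adjusted p = 0.0418). Each was brightest with shS100A10_5. Of the called genes whose role is less settled, TCP11L2 rose by 1.29 on the log2 scale (SE 0.18, adjusted p = 0.0264). LRATD2 rose by 1.02 on the log2 scale (SE 0.16, adjusted p = 0.0409). IQCK rose by 0.99 on the log2 scale (SE 0.16, adjusted p = 0.0409).

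**Figure D3:**
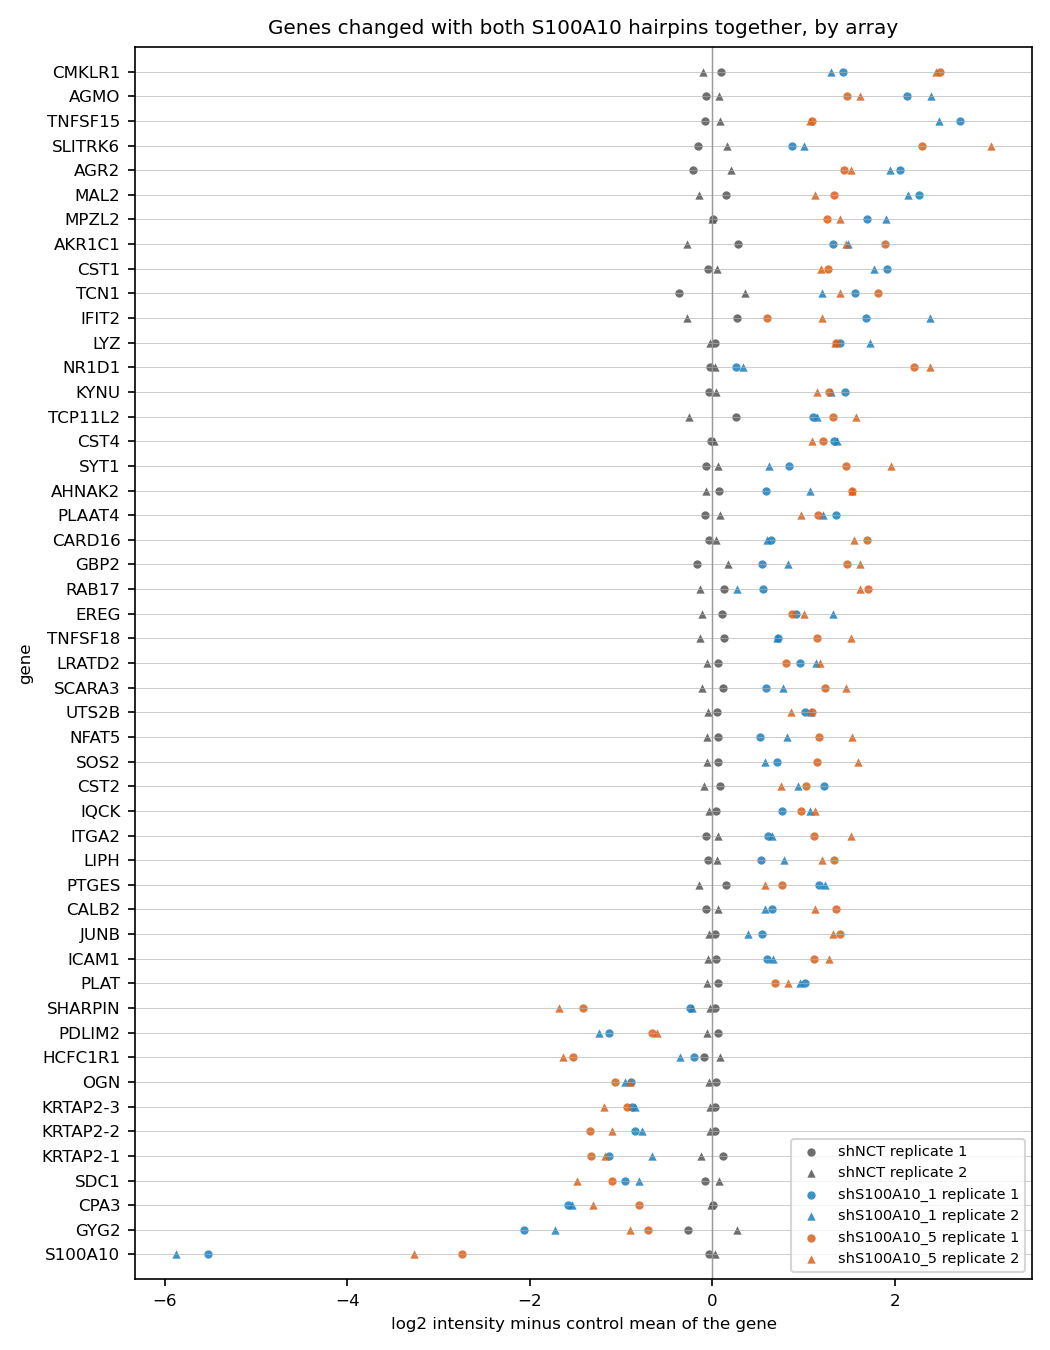
Each row is 1 of the 49 called genes on 1 side of the controls, and each point is 1 array, plotted as log2 intensity minus the gene's control mean (horizontal axis), grey for shNCT, blue for shS100A10_1 and orange for shS100A10_5. The 38 rises lie right of the controls and the 11 falls left, with the colours apart in genes such as NR1D1, SHARPIN and HCFC1R1.

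The hairpins differed from each other in 14 of the 49 called genes (28.6%) by limma's test of shS100A10_5 against shS100A10_1, where 494 of all 16965 probe sets (2.91%) passed. That test leaves out the control values but shares the estimate of the spread, and a gene with a large change had more room for a difference. The rises were larger with shS100A10_1 in 17 genes and with shS100A10_5 in 21, and the falls in 4 and 7. Both hairpins passed singly against the shared controls in 13 of the 49. NR1D1 had log2 changes of 0.30 and 2.30 with shS100A10_1 and shS100A10_5. TNFSF15 went the other way, with 2.60 and 1.08. In SHARPIN (-0.24 and -1.54) and HCFC1R1 (-0.27 and -1.58) nearly the whole fall came with shS100A10_5, the hairpin that left more S100A10. By contrast OGN (-0.93 and -0.98), UTS2B (1.04 and 0.98), LRATD2 (1.05 and 0.99) and KYNU (1.38 and 1.21) had nearly the same change with each, and the difference was -0.05 (SE 0.17) in OGN and -0.17 (SE 0.17) in KYNU.

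**Figure D4:**
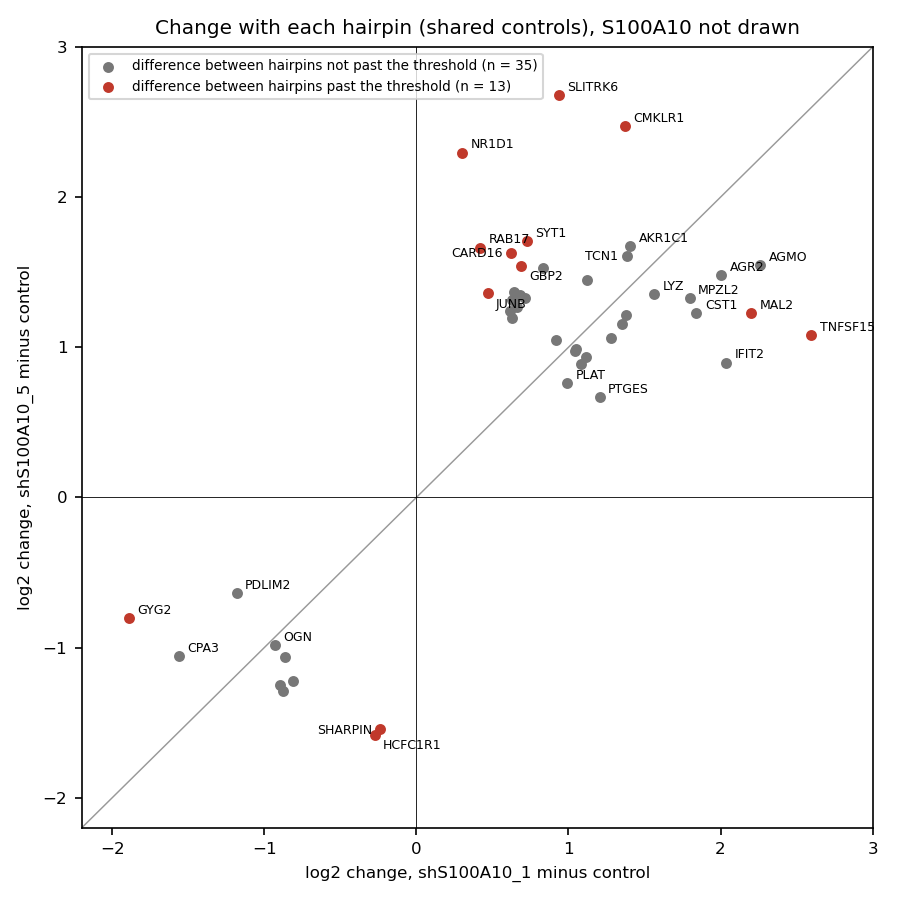
Log2 change with shS100A10_1 (horizontal axis) against that with shS100A10_5 (vertical axis) for the called genes other than S100A10, both measured from the same 2 control arrays. On the diagonal both changes are equal, and the 13 red genes, whose hairpins differed past the threshold, include NR1D1 and SLITRK6 above it and TNFSF15 and MAL2 below it.

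Lists of cell division and of protein and energy production had many members below both controls, none of which passed the test. Replication-dependent histones package newly made DNA, and 19 of 49 (38.8%) lay below both controls and 0 above, against 9.23% and 10.5% of all genes. They were H1-4, H2AC4, H2AC8, H2AC11, H2AC14, H2AC20, H2BC3, H2BC5, H2BC11, H2BC13, H2BC14, H2BC18, H3C1, H3C2, H3C3, H3C6, H4C1, H4C2 and H4C8. Limma called 0 of them, with an unadjusted p under 0.05 in 16 lower and 0 higher. The list's median change was -0.32, and the median by array was -0.05 and -0.27 with shS100A10_1 and -0.34 and -0.59 with shS100A10_5. The control arrays stood at -0.08 and 0.08, so replicate 1 of shS100A10_1 lay within their range. H4C1 read 876 and 1206 in the controls, 782 and 555 with shS100A10_1 and 374 and 243 with shS100A10_5 (log2 -1.21, SE 0.23, adjusted p = 0.0683). H3C1 read 1242 and 1683 in the controls, 986 and 716 with shS100A10_1 and 586 and 626 with shS100A10_5 (log2 -1.02, SE 0.19, adjusted p = 0.0626). Histone genes are close copies of each other and their probe sets may share signal.

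Of 47 DNA replication genes 14 (29.8%) lay below both controls and 0 above, against 9.23% and 10.5% of all genes. The 14 were MCM2, MCM3, MCM10, CDC6, GINS1, GINS2, POLA2, POLD1, PRIM1, RFC5, RPA1, FEN1, TIMELESS and CHAF1B. Limma called 0, with 18 lower and 1 higher where the unadjusted p was below 0.05. The median by array was -0.16 and -0.04 with shS100A10_1 and -0.41 and -0.36 with shS100A10_5, so the departure was larger with the second hairpin. GINS1, a subunit of the replicative helicase, had a log2 difference of -0.67 (adjusted p = 0.16). PRIM1, a subunit of primase, had a log2 difference of -0.56 (adjusted p = 0.181). Of 23 nucleotide synthesis genes TK1, RRM1, GART, PFAS, ADSL, IMPDH1 and IMPDH2 lay below and 0 above both controls, again with 0 called and 7 lower and 0 higher where the unadjusted p was below 0.05. TK1, thymidine kinase, had a log2 difference of -0.74 (adjusted p = 0.107). Among 45 genes of mitosis and the spindle 11 (24.4%) lay below, AURKA, AURKB, BUB1B and BIRC5 among them, and NDC80 and ECT2 above, with 0 called and 5 lower and 0 higher where the unadjusted p was below 0.05.

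Of 67 genes of oxidative phosphorylation 16 (23.9%) lay below and 4 (5.97%) above both controls, against 9.23% and 10.5% of all genes. Limma called 0 of the 67, with 15 lower and 2 higher where the unadjusted p was below 0.05. Their median change of -0.23 depended on both arrays of shS100A10_5: it was -0.37 without replicate 1 and -0.13 without replicate 2, and the medians by array were 0.02, -0.13, -0.16 and -0.63. Mitochondrial ribosomal proteins behaved alike, with 14 of 74 (18.9%) below and 6 (8.11%) above and 0 called. The unadjusted p was below 0.05 in 18 lower and 0 higher, and the median of -0.14 became -0.25 and -0.06 without the same arrays. Of 41 cytosolic ribosomal proteins 8 (19.5%) lay below and 0 above, with 0 called and 2 lower and 0 higher where the unadjusted p was below 0.05. Their median was -0.13, against -0.21 and -0.07 without these arrays. Replicate 2 of shS100A10_5 is the array on which longer genes read higher. With each array's dependence on gene span taken out, an alternative added after seeing the data, the 3 medians were -0.23, -0.12 and -0.10. In glycolysis HK2, GPI, PFKP, ALDOA, TPI1 and LDHB, 6 of 20 (30.0%), lay below both controls and 0 above. Limma called 0 of the 20, with 3 lower and 1 higher where the unadjusted p was below 0.05. In cholesterol synthesis ACAT2, MVD, EBP and DHCR7, 4 of 18 (22.2%), lay below and 0 above. Limma called 0 of the 18, with 5 lower and 0 higher where the unadjusted p was below 0.05. The median of cholesterol synthesis was -0.06 with shS100A10_1 and -0.39 with shS100A10_5.

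**Figure D5:**
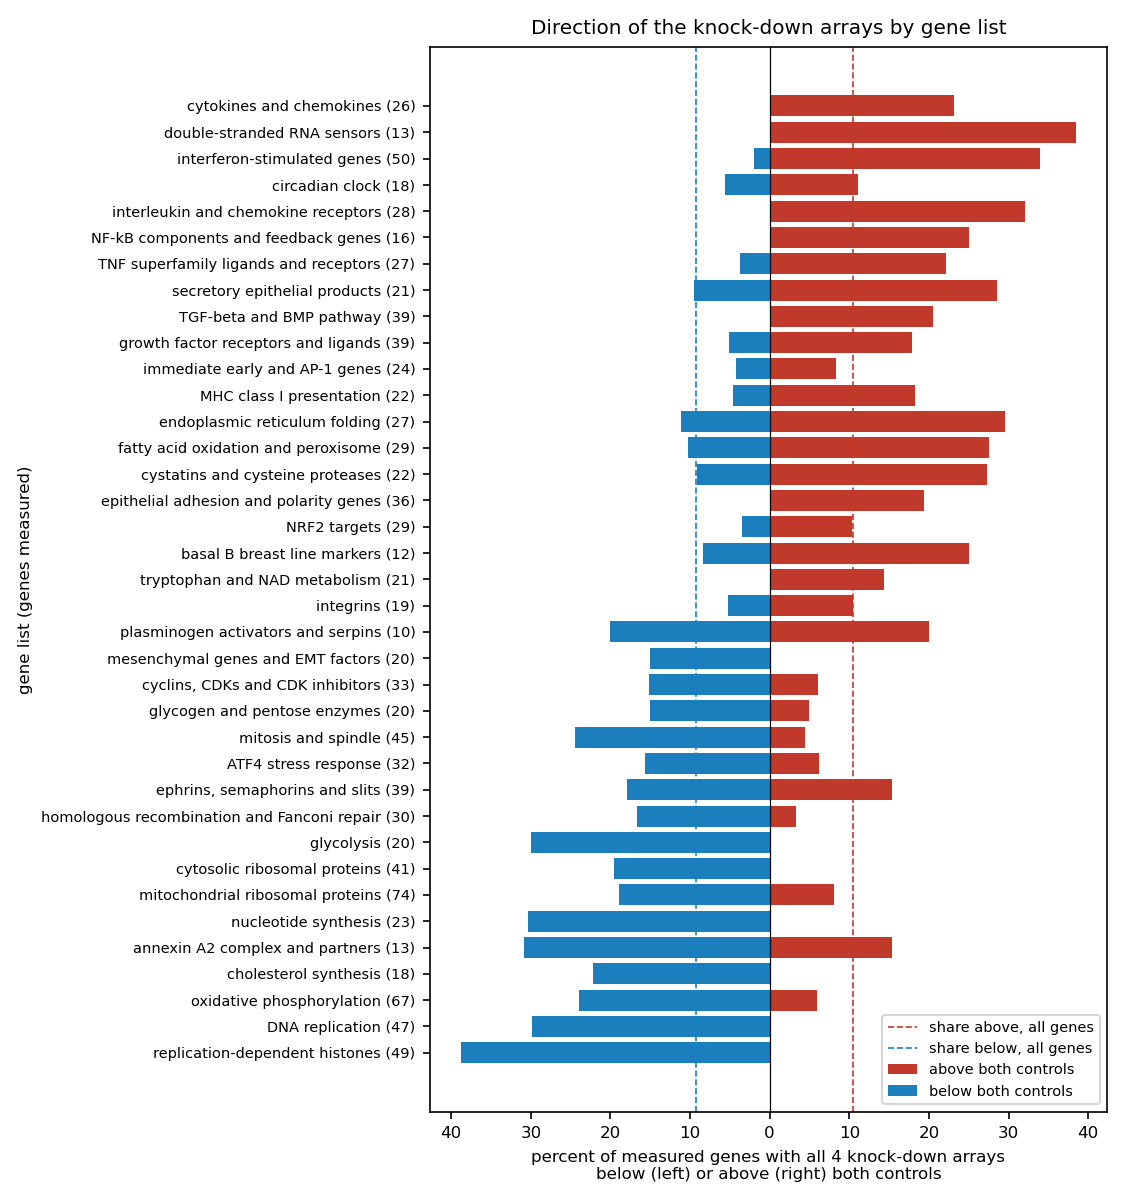
Bars give the percent of each list's measured genes (number in brackets) with all 4 knock-down arrays above (right, red) or below (left, blue) both controls, ordered by the list's median change, and dashed lines give 10.5% and 9.23%, the shares of all genes. Interferon-stimulated genes reach 34.0% above, and replication-dependent histones 38.8% below.

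Of the 47 genes on 1 side that differed at least 2-fold, 12 did not pass the test. MSLN, the surface protein mesothelin, read 254 and 215 in the controls, 214 and 128 with shS100A10_1 and 70.5 and 54.8 with shS100A10_5 (log2 -1.21, SE 0.22, adjusted p = 0.0582). UMAD1 read 755 and 598 in the controls, 264 and 209 with shS100A10_1 and 388 and 508 with shS100A10_5 (log2 -1.06, SE 0.18, adjusted p = 0.0527). PYGO2, a cofactor of Wnt signalling, read 514 and 672 in the controls, 407 and 417 with shS100A10_1 and 256 and 151 with shS100A10_5 (log2 -1.04, SE 0.22, adjusted p = 0.101). Their arrays scattered within groups, and MSLN on shS100A10_1 replicate 1 nearly reached the controls. RARB, the retinoic acid receptor beta, read 51.5 and 64.2 in the controls, 125 and 86.4 with shS100A10_1 and 144 and 127 with shS100A10_5 (log2 1.04, SE 0.19, adjusted p = 0.0582). TSPAN13, a tetraspanin, read 289 and 299.8 in the controls, 433 and 512 with shS100A10_1 and 639 and 1033 with shS100A10_5 (log2 1.07, SE 0.20, adjusted p = 0.0655). GJB2, the gap junction protein connexin 26, read 79.3 and 43.5 in the controls, 117 and 173 with shS100A10_1 and 122 and 103 with shS100A10_5 (log2 1.10, SE 0.25, adjusted p = 0.121). The remaining 6 were TNFSF10, H3C1 and H4C1, given above, and MS4A13, NEK10 and PIERCE1. At the threshold, IFIT2 (adjusted p = 0.048) and SHARPIN (0.0464) were just inside, and MRAS (0.0508), CSF1 (0.0508) and TNFSF10 (0.0523) just outside.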

How the data were processed

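Biotin-labelled cDNA from total RNA was hybridised to 6 cartridge arrays in 3 groups, per the labels' protocols. The authors deposited 1 normalized intensity per probe set and array, made with Transcriptome Analysis Console per the submitters' processing notes. For its version, background correction and normalization, the sources used here give nothing. The log2 of each deposited intensity ended at 5 decimals (largest deviation 7.13e-10), and the table has no detection calls or scan dates. The platform annotation gave 15674 of 16965 probe sets 1 gene symbol and 1291 none, and all 15674 were matched by gene identifier to RefSeq (GRCh38.p14).

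Intensities were converted to log2 with no pseudocount or filter. A model of the 3 group means was fitted jointly with lmFit and eBayes of limma 3.58.1 (R 4.3.3). The prior SD was 0.1943, with 7.161 prior and 3 residual degrees of freedom. Contrasts were the mean of both hairpins minus shNCT, each hairpin minus shNCT and shS100A10_5 minus shS100A10_1, two-sided, with Benjamini-Hochberg adjusted p-values over the 16965 probe sets and a threshold of 0.05. The fit was run on simulated data with independent noise and the same effect in both hairpin groups. That simulation cannot judge how differences between the hairpins bear on the calls. An exact permutation test of 4 arrays against 2 cannot go below 0.0667. The precision is limited by the number of arrays.

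Named genes are the called ones on 1 side, up to 3 further members of each list by smallest p, S100A10 and ANXA2, with family members and the 2-fold members that did not pass chosen after their values were seen. Small RNAs and uncharacterized loci stay in the counts. The members and the 74 gene lists were chosen with earlier results of these data known, and the grouping by function was made by hand after the called genes were seen, so lists are described by counts and medians with no test.

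Promoters are the 250 bases before the RefSeq start. Alternatives were other normalizations, filters, variance priors, array weights, the replicate block, pooled knock-down groups, 1 probe set per gene, other thresholds and pseudocounts, and leaving out each array.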

Additional observations from a re-analysis of the deposited data

Results flagged for a closer look

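The genes below were called for the mean of both hairpins, and limma's test of shS100A10_5 against shS100A10_1 passed for each (adjusted p under 0.05 over all probe sets), so that the level differed between the groups of the 2 hairpins. Values are log2 differences, shS100A10_5 minus shS100A10_1. S100A10 was 2.70 higher with shS100A10_5, where its fall was smaller. Of the other falls, GYG2 differed by 1.09, QPCTL by -2.03, HCFC1R1 by -1.31 and SHARPIN by -1.31. Rises that were larger with shS100A10_5 were NR1D1 (2.0), SLITRK6 (1.74), RAB17 (1.25), CMKLR1 (1.11), CARD16 (1.01), SYT1 (0.98), JUNB (0.89) and GBP2 (0.86). Rises that were larger with shS100A10_1 were TNFSF15 (-1.52) and MAL2 (-0.98). OASL differed by -3.12 and lay on opposite sides of the controls with the 2 hairpins. What made the hairpins differ was not tested.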

How the results depend on the processing

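The count of 52 called probe sets stayed within 1.5 times under quantile normalization (41), median centring (55), robust hyperparameters (46), the brightest probe set per gene (59), adjustment over probe sets with a symbol (56) and removal of the trend on gene span (47, chosen after seeing the data). It moved to 85 (30 lower) above the lower quartile of level, 140 (69 higher, 71 lower) above the median, 218 (117 higher, 101 lower) with an intensity trend, 79 (23 lower) with array weights and 87 (33 lower) with log2(value + 16). It was 105 (67 higher, 38 lower) at an adjusted p under 0.1 and 13 (12 higher, 1 lower) under 0.01. With the knock-down arrays as 1 group limma called 0 (0 higher, 0 lower), 1268 at an unadjusted p under 0.05, and with the hairpin as a random block 0 (0 higher, 0 lower; smallest adjusted p 0.0819, 957 unadjusted). The 49 genes kept their direction in every alternative that gave them a value, which the filters did for 46 (lower quartile) and 35 (median). Quantile normalization left 39 of them past the threshold.

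Without 1 array each, the calls ranged from 6 to 44, the calls higher from 5 to 33, the calls lower from 1 to 11, the list members called from 6 to 24 (26 with all arrays) and the genes on 1 side of the controls from 4038 to 6782, since fewer arrays separate more easily. Filtering to probe sets above the median left 1924 genes on 1 side. The change of ANXA2 ranged from -0.12 to 0.025, with its sign turned without shNCT replicate 2. With the replicate block limma called 60 probe sets (44 higher), 46 of the 49 genes among them. Deviations of same-numbered arrays correlated at -0.0223 and -0.035 between shNCT and shS100A10_1 and shS100A10_5. Between the 2 hairpin groups they correlated at 0.188. Whether same-numbered arrays shared a batch was not tested. Of 42 list medians recomputed, 1 moved by more than the spread between arrays under quantile normalization, 0 under median centring and 3 with the trend on gene span removed. Leaving out shNCT replicate 1 moved 11, shNCT replicate 2 moved 17, and each knock-down array moved 6 to 9. The causes of the moved counts were not tested, apart from the smaller number of probe sets or arrays where the setting itself removes them. The precision is set by 2 arrays a group, and signal over background could not be judged without detection calls.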

Other observations

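Chromatin modifiers had 8 of 36 measured members (22.2%) above both controls and 2 below, and splicing factors 6 of 29 (20.7%) above and 0 below, against 10.5% and 9.23% of all genes. Of 33 autophagy and lysosome genes 5 lay above and 0 below, and of 24 Notch pathway genes 5 above and 0 below. Limma called 0 genes in each of these 4 lists, with an unadjusted p under 0.05 in 3 higher and 1 lower, 1 and 1, 1 and 1, and 1 and 1.

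Secretory epithelial products and endoplasmic reticulum folding genes, which share AGR2, had 6 of 21 (28.6%) and 8 of 27 (29.6%) above both controls. In the first, SCGB2A1 and MSLN lay below, limma called AGR2 and LYZ, and the unadjusted p was under 0.05 in 3 higher and 2 lower. In the second list HSPA5, DNAJB9, DNAJB11, PDIA6, CANX, HERPUD1 and CREB3L2 stood beside AGR2, and CALR, MANF and CREB3 lay below. Genes of the ATF4 stress response lay below both controls in 5 of 32 cases, PHGDH, SHMT2, SLC1A4, PCK2 and CTH, and above in SLC6A9 and STC2. Limma called 0 of them, and at an unadjusted p under 0.05 the balance was the opposite, with 5 higher and 3 lower.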
